A study of Homo sapiens with 8 samples.

Results

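The 10 genes described here, of 60652 gene rows counted, were the Notch receptor genes NOTCH1, NOTCH2 and NOTCH3, the ligand genes JAG1 and DLL1, and the transcription factor genes HES1, HES4, HES6, HEY1 and HEYL. They were chosen by name, because HES1 was known from these same libraries to differ between the 2 activator constructs and the question was whether other Notch targets shared that difference. The difference between constructs is therefore given as a description without a test, and tests are given for the effect of the guide within each construct. The libraries that enter those tests also entered the difference that chose the genes.

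Messenger RNA was sequenced from 8 libraries of HEK293T cells, a human embryonic kidney line, which here carried a TRE3G-GFP reporter in every group. Plasmids for an activator and a guide RNA were transfected, and cells positive by their mCherry and BFP fluorescence were sorted after 2 days, so every group holds transfected, sorted cells of 1 reporter line. Serum was at 10% in every group. There were 4 groups of 2 libraries. Group sgTet had dCasMINI-VPR, in which VPR activation domains are fused to a compact Cas protein that does not cut DNA, with the Tet guide, and group sgNT had dCasMINI-VPR with the non-targeting guide. Group crTet had dCas12a-VPR, in which they are fused to the larger dCas12a, with its Tet guide, and group crNT had dCas12a-VPR with its non-targeting guide. The labels do not say whether the 2 libraries of a group came from separate transfections, so each p-value measures only the spread between these libraries, which may be technical. Each construct used its own kind of guide RNA and the labels give no batch, so a difference between constructs cannot be told apart from a difference of guide RNA or of library set.

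In Notch signalling, a ligand of the Delta or Jagged family on one cell binds a Notch receptor on its neighbour, and the bound receptor is cut first by an ADAM protease and then by gamma-secretase. The freed intracellular domain enters the nucleus, joins the DNA-binding protein RBPJ and a Mastermind coactivator, and switches on target genes, of which the HES and HEY repressors are the best known. HES1 represses its own promoter through N boxes, and many inputs other than Notch also act on it. In the embryonic kidney the pathway is known for its part in patterning the nephron.

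Promoter stretches of HES1, HES4 and HEYL are shown because they hold the letters that RBPJ reads, and those of the other members searched do not. Promoters from RefSeq (GRCh38.p14) covered 8 of the 10 genes, without HEY1 and DLL1, and the 250 bases before each start were searched on both strands for TGGGAA, the core of the RBPJ motif. HES1 held 2 copies, 84 to 79 and 70 to 65 bases before its start, in a stretch at chr3:194136025-194136144 on the plus strand, shown with both copies in capitals.
HES1: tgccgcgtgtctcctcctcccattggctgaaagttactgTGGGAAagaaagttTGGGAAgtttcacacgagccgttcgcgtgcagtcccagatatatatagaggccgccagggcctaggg
The single copy of HES4 lies in chr1:1000156-1000185 and the copies of HEYL lie in chr1:39639804-39639833 and chr1:39639725-39639754, all given along the minus strand of the genome, which is the strand of both genes. Capitals mark TGGGAA, or TTCCCA where the copy reads on the opposite strand.
HES4: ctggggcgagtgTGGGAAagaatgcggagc
HEYL, distal: ccgcctagggccTTCCCAcggctcggcggc
HEYL, proximal: aggaaagggcccTGGGAAagggcggtggcg
At least 1 copy of TGGGAA stood in 20.8% of the 35116 promoters in the table, and at least 2 copies stood in 2.9%. The longer form GTGGGAA, which contains the core and so overlaps it, occurred once each in HES1, HES4 and HEYL and in 5.43% of all promoters. HES6, NOTCH1, NOTCH2, NOTCH3 and JAG1 had no copy of the core in this window. The N box CACNAG, read by HES proteins, occurred 3 times before HES1 and once before NOTCH3, and in 32.0% of all promoters, while the E box CACGTG occurred in none of the 8 and in 6.34% of all. The starts used are those of RefSeq. The GENCODE positions given below put the starts of HES4, HES6 and HEYL further upstream, and that of HES1 by a few bases. They put those of NOTCH1, NOTCH2 and NOTCH3 further downstream. The NOTCH1 window begins at 136546049 and its GENCODE start is 136545786, so the 250 bases before that start were not searched. By those positions the HES6 and HEYL windows lie wholly inside the genes, and that of HES4 in part. These matches describe letters and not occupied sites.

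Reads counted in genes came to between 17474404 and 21081942 per library, at which 3 reads equal 0.142 to 0.172 CPM (CPM, the reads of a gene scaled to a common library size; this floor covers counting error alone). The unmapped share was 14.4% and 12.7% in crNT and 8.32% to 9.62% in the other 6 libraries. The 2 sgTet libraries differed from each other more than any other pair, with a chi-square of 13.8 per degree of freedom over genes, against 3.19 to 6.92 in the other groups, so the sgTet minus sgNT values of HES1, HES4, HES6, NOTCH3 and DLL1, whose sgTet libraries stood apart from sgNT or from each other, are also given without one of its libraries. Those of HEY1, HEYL, NOTCH1, NOTCH2 and JAG1 did not pass the threshold without either library, with a lowest adjusted p of 0.302. The reporter EGFP stood at 920 and 1094 CPM in sgTet against 3.23 and 4.42 CPM in sgNT, and at 804 and 708 CPM in crTet against 2.77 and 2.66 CPM in crNT, as the labels say. All 8 markers of the HEK293 line were detected, among them NEFL at a mean of 98.4 CPM and PAX2 at 7.15 CPM. Of 8 markers of other cell types, PTPRC and HBB had no read in any library, and the fibroblast gene COL1A1 had a mean of 39.3 CPM.

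All 10 genes had enough reads in every group to be tested. Levels were set per kilobase of exon, so that genes can be compared, with all annotated exons of a gene counted once. This length, 16.81 kilobases for NOTCH2 and 9.3 for JAG1, can exceed that of the transcript expressed, and the order depends on it. The mean level over the 8 libraries was highest for HEY1 at 109 CPM per kilobase and lowest for JAG1 at 1.15 CPM per kilobase. HES4 followed HEY1 at 61.3 CPM per kilobase, then HES1 at 25.1, HES6 at 16.0, NOTCH2 at 11.0, NOTCH3 at 6.53, HEYL at 4.28, NOTCH1 at 3.10 and DLL1 at 2.61 CPM per kilobase. The libraries of neighbours in this order overlapped for HES1 and HES6, HES6 and NOTCH2, and NOTCH1 and DLL1, and did not overlap for the other neighbours. HES1 had the widest spread of the 10 for its level, from 9.79 to 37.9 CPM per kilobase. The HES and HEY family genes HEY1, HES4, HES1 and HES6 stood above the 3 receptors and both ligands in mean level per length. In bulk RNA, fewer cells that express a gene cannot be told apart from less of its RNA per cell.

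**Figure D1:**
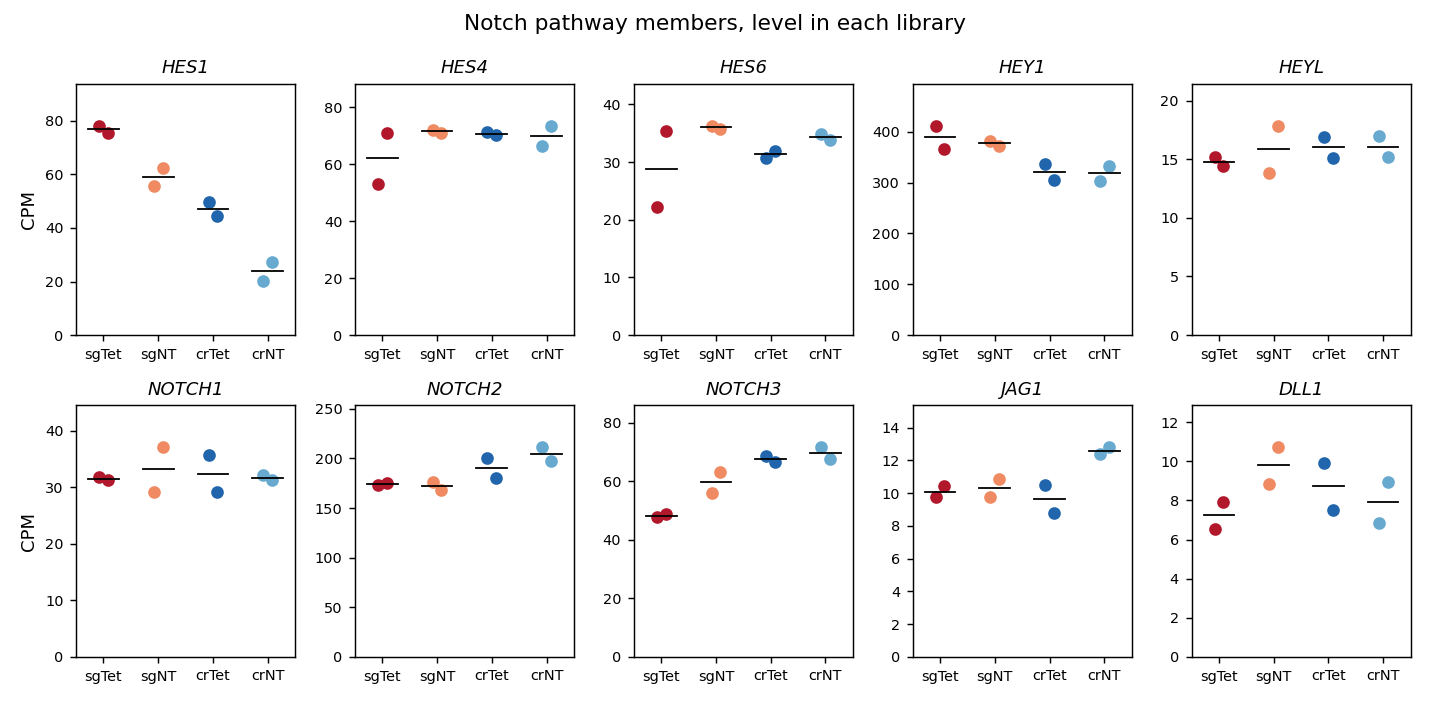
Level in CPM of each of the 10 genes (vertical axis, from 0) in the 4 groups (horizontal axis); each point is 1 library and each line the mean of 2. The HES1 libraries of sgTet are the highest, up to 78.2 CPM, and those of crNT the lowest, down to 20.2 CPM, and in HES4 and HES6 1 sgTet library lies below the rest.

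HES1, a basic helix-loop-helix repressor (ENSG00000114315.4, hg38 chromosome 3, 194136145 to 194138732), was the 1 member called in a comparison of guides. It had 49.7 and 44.6 CPM in crTet against 20.2 and 27.4 CPM in crNT. Both crTet libraries stood above both crNT libraries, as in 4373 of the 16606 genes tested. The HES1 difference was a rise of 1.98-fold, or 0.98 ± 0.12 on the log2 scale (SE, 95% interval 0.74 to 1.22, adjusted p = 6.44e-06, edgeR quasi-likelihood test). The rise was 0.78 without crNT replicate 1, the lowest library for HES1, and 1.23 without crNT replicate 2, and the highest adjusted p over all 16 alternative analyses was 0.00314. The crNT libraries were also those with the largest unmapped share, 14.4% and 12.7%, and the part of this in the HES1 difference was not tested. The same libraries entered the HES1 construct difference for which the genes were chosen, so the p-value and interval may not be free of that choice.

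With dCasMINI-VPR, HES1 had 78.2 and 75.5 CPM in sgTet against 55.7 and 62.5 CPM in sgNT. The sgTet libraries stood above the sgNT libraries here too, as in 3428 of the 16606 genes tested. The HES1 difference of 0.38 ± 0.11 (log2, SE, 95% interval 0.16 to 0.60) did not pass the adjusted threshold, with an adjusted p of 0.103 from edgeR. It passed without sgTet replicate 2, at 0.41 with an adjusted p of 0.027, and without a filter on low counts, with an adjusted p of 0.0282. Without sgTet replicate 1 it was 0.36 with an adjusted p of 0.345.

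The guide effect on HES1 with dCasMINI-VPR minus that with dCas12a-VPR was -0.60 ± 0.16 on the log2 scale (SE, 95% interval -0.93 to -0.28), which missed the threshold at an adjusted p of 0.0511 by edgeR. It was called in 6 of 16 alternatives, and its adjusted p ranged from 0.0065 to 0.423 over them. The pair of crNT libraries moved it most, to -0.41 (adjusted p = 0.423) without replicate 1 and to -0.85 (adjusted p = 0.0136) without replicate 2. With the replicate block it was -0.61, with an adjusted p of 0.0329.

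Of the other HES and HEY members, HEY1, the HES-related repressor with the highest level of the 10 (ENSG00000164683.18, chromosome 8, 79764010 to 79767863), had 412 and 366 CPM in sgTet against 383 and 372 CPM in sgNT. It had 337 and 305 CPM in crTet against 303 and 332 CPM in crNT. The libraries with and without a Tet guide overlapped within each construct, and the log2 guide effects were 0.04 ± 0.07 and 0.01 ± 0.07 (SE, edgeR adjusted p of 0.856 and 0.950). The 95% intervals of both lay between -0.14 and 0.19, below the 0.74 at which the interval of HES1 in crTet begins.

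HES4 (ENSG00000188290.11, chromosome 1, 998962 to 1000172), a HES family gene that humans have and mice lack, had 53.1 and 70.9 CPM in sgTet against 72.1 and 70.9 CPM in sgNT. It had 71.1 and 70.4 CPM in crTet against 66.5 and 73.6 CPM in crNT. A single library, sgTet replicate 1, stood below the other 7, which lay close together. The log2 guide effect was -0.21 ± 0.10 in sgTet minus sgNT (adjusted p = 0.428, edgeR) and 0.02 ± 0.10 in crTet minus crNT (adjusted p = 0.964). The first was -0.01 without sgTet replicate 1 and -0.43 without sgTet replicate 2. HES4 has the highest GC content of the 10 transcripts at 73.9%, and its value in crTet was -0.40 (adjusted p = 0.00103) after a trend on transcript length and GC content was removed.

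HES6 (ENSG00000144485.11, chromosome 2, 238238267 to 238240662), a HES family member that opposes HES1 in mouse neural cells, showed the same single low library. It had 22.2 and 35.4 CPM in sgTet against 36.3 and 35.7 CPM in sgNT, and 30.7 and 32.0 CPM in crTet against 34.8 and 33.9 CPM in crNT. The log2 guide effect was -0.32 ± 0.15 in sgTet minus sgNT (edgeR adjusted p = 0.364) and -0.13 ± 0.14 in crTet minus crNT (adjusted p = 0.680), and the first was -0.02 without sgTet replicate 1 and -0.70 (adjusted p = 0.000363) without replicate 2. HEYL (ENSG00000163909.8, chromosome 1, 39624153 to 39639945), the third HEY gene, had 15.2 and 14.4 CPM in sgTet against 13.8 and 17.9 CPM in sgNT, and 16.9 and 15.1 CPM in crTet against 17.0 and 15.2 CPM in crNT. Its groups overlapped, and its log2 guide effects of -0.10 ± 0.15 and -0.00 ± 0.15 did not pass the test (adjusted p of 0.845 and 0.996).

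Among the receptors, NOTCH3 (ENSG00000074181.9, chromosome 19, 15159038 to 15200981) had 47.8 and 48.7 CPM in sgTet against 56.2 and 63.3 CPM in sgNT, and 68.7 and 66.8 CPM in crTet against 71.6 and 67.8 CPM in crNT. Both sgTet libraries stood below all other libraries, while sgTet stood below sgNT without overlap in 3357 of the 16606 genes tested. The guide effect with dCasMINI-VPR was -0.31 ± 0.10 on the log2 scale and did not pass the threshold (adjusted p = 0.138, edgeR), but did without sgTet replicate 2 (-0.32, adjusted p = 0.0468), where 8.34% of all genes were called. It was -0.29 (adjusted p = 0.396) without sgTet replicate 1, -0.22 (0.695) without sgNT replicate 2 and -0.18 (0.371) with the length and GC trend removed. With dCas12a-VPR it was -0.04 ± 0.09 (adjusted p = 0.867).

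NOTCH2 (ENSG00000134250.20, chromosome 1, 119911553 to 120069626) was the most highly expressed receptor per length. It had 173 and 175 CPM in sgTet against 176 and 168 CPM in sgNT, and 200.1 and 180 CPM in crTet against 211 and 198 CPM in crNT. The guide effects were 0.02 ± 0.08 (adjusted p = 0.957, edgeR) and -0.11 ± 0.08 (adjusted p = 0.478). Human NOTCH2 has near-identical partial copies, the NOTCH2NL genes, so the reads assigned to it are uncertain where the copies match. NOTCH1 (ENSG00000148400.13, chromosome 9, 136494433 to 136545786) had 31.8 and 31.4 CPM in sgTet against 29.3 and 37.1 CPM in sgNT, and 35.7 and 29.2 CPM in crTet against 32.1 and 31.3 CPM in crNT. Its groups overlapped in both comparisons, with log2 guide effects of -0.07 ± 0.12 (adjusted p = 0.863) and 0.03 ± 0.12 (adjusted p = 0.925).

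The ligands were the least expressed members per length. JAG1 (ENSG00000101384.12, chromosome 20, 10637684 to 10673999) had 9.75 and 10.5 CPM in sgTet against 9.79 and 10.9 CPM in sgNT, and 10.5 and 8.78 CPM in crTet against 12.4 and 12.8 CPM in crNT. The crTet libraries stood below the crNT libraries, as in 4363 of the 16606 genes tested. The JAG1 difference of -0.39 ± 0.17 (log2, SE) had an adjusted p of 0.194 by edgeR, and that with dCasMINI-VPR was -0.03 ± 0.17 (adjusted p = 0.962). Exons of JAG1 overlap those of an antisense gene, and the counts ignore strand. DLL1 (ENSG00000198719.9, chromosome 6, 170282206 to 170306565) had 6.55 and 7.94 CPM in sgTet against 8.86 and 10.7 CPM in sgNT, and 9.90 and 7.54 CPM in crTet against 6.87 and 8.96 CPM in crNT. Its sgTet libraries stood below its sgNT libraries, as in 3357 of the 16606 genes tested. The DLL1 log2 difference was -0.43 ± 0.20 (adjusted p = 0.381 by edgeR), and it was -0.30 without sgTet replicate 1 and -0.58 without replicate 2. Its crTet and crNT libraries overlapped, with a difference of 0.14 ± 0.20 (adjusted p = 0.767).

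Taken over the 10 genes, 1 was called in crTet minus crNT, HES1, beside 6.32% of all genes tested. No gene was called in sgTet minus sgNT, where 0.795% of all genes were called by edgeR. At an unadjusted p under 0.05 this comparison held 4 of the 10, HES1 upward and HES6, NOTCH3 and DLL1 downward, beside 12.3% of all genes, and DESeq2 called none. The median log2 difference of the 10 was -0.08 in sgTet minus sgNT, against 0.00 over all genes, and 0.01 in crTet minus crNT, against 0.01 over all genes. In the difference of guide effects edgeR called none of the 10, beside 1.35% of all genes. HES1 alone had an unadjusted p under 0.05 there, beside 15.9% of all genes, and DESeq2 called it (adjusted p = 0.0434). The difference and its terms share libraries and are not independent. Without overlap of libraries, 1 of the 10 was higher and 3 lower in sgTet minus sgNT, beside 3428 and 3357 of 16606 genes tested. In crTet minus crNT 1 was higher and 2 lower without overlap, beside 4373 and 4363.

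**Figure D2:**
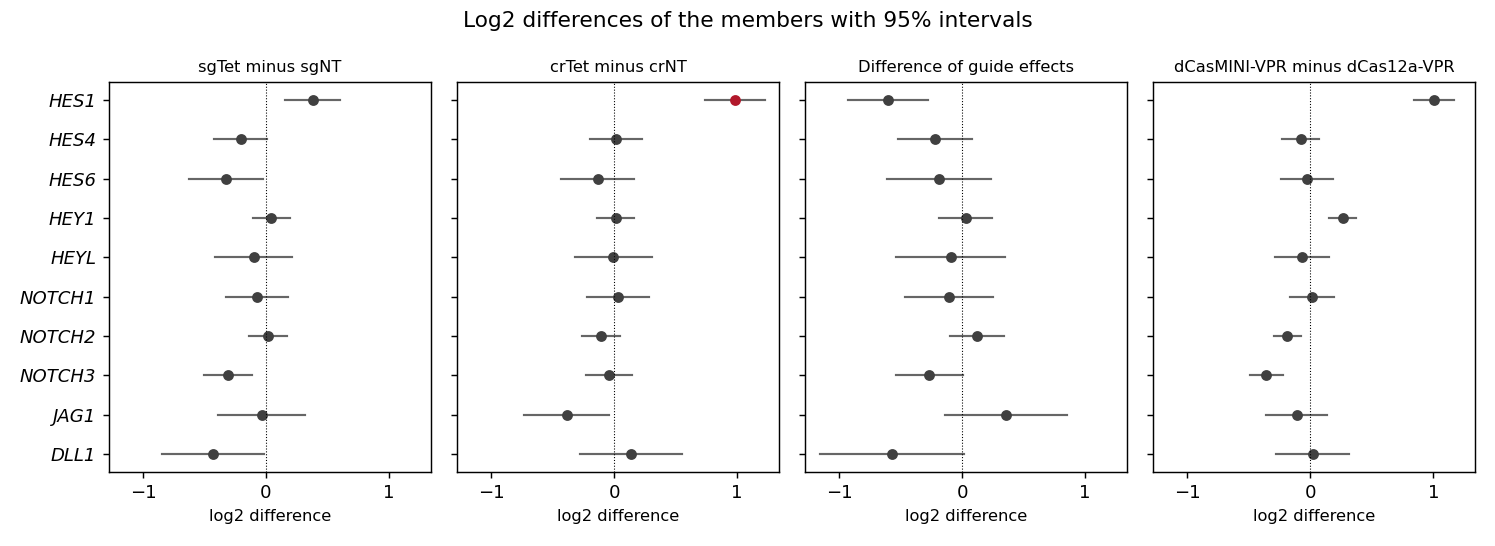
Log2 difference (horizontal axis) with its 95% interval for each of the 10 genes in 4 comparisons; a red point marks a gene called at an adjusted p of 0.05 in a guide comparison, and the last panel is a description in which none is marked. HES1 in crTet minus crNT, at 0.98, is the marked point.

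Between constructs, over both guides, HES1 had 55.7 to 78.2 CPM in the 4 dCasMINI-VPR libraries and 20.2 to 49.7 CPM in the 4 dCas12a-VPR libraries, which do not overlap. The log2 difference was 1.01 ± 0.08 (SE), and it was wider between the non-targeting groups, 1.31 ± 0.12 for sgNT minus crNT, than between the Tet groups, 0.71 ± 0.11 for sgTet minus crTet. These HES1 values chose the genes.

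HEY1 differed in the same direction by less. Its libraries ranged over 366 to 412 CPM with dCasMINI-VPR and over 303 to 337 CPM with dCas12a-VPR, a log2 difference of 0.26 ± 0.05 that was near the same with non-targeting guides (0.25 ± 0.07) and with Tet guides (0.28 ± 0.07). NOTCH3 and NOTCH2 differed in the opposite direction. NOTCH3 had 47.8 to 63.3 CPM with dCasMINI-VPR and 66.8 to 71.6 CPM with dCas12a-VPR, a log2 difference of -0.36 ± 0.07 that was -0.22 ± 0.09 with non-targeting guides and -0.49 ± 0.09 with Tet guides. NOTCH2 had 168 to 176 CPM with dCasMINI-VPR and 180 to 211 CPM with dCas12a-VPR, a log2 difference of -0.19 ± 0.05 that was -0.25 ± 0.08 with non-targeting guides and -0.13 ± 0.08 with Tet guides.

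The libraries of the 2 constructs overlapped for the other 6 genes, with log2 differences of -0.08 ± 0.07 for HES4, -0.03 ± 0.10 for HES6, -0.07 ± 0.11 for HEYL, 0.01 ± 0.09 for NOTCH1, -0.11 ± 0.12 for JAG1 and 0.02 ± 0.14 for DLL1. Of the 10 genes, 2 were higher with dCasMINI-VPR without overlap, beside 4.09% of all genes, and 2 were lower without overlap, beside 5.62% of all genes. The adjusted threshold marked the same 4 genes, beside 10.0% of all genes, with 2 higher beside 4.83% and 2 lower beside 5.20%, and it marked NOTCH2 in 12 of 16 alternatives. The choice of genes used this contrast, so these counts are no test, and nothing is read from them. The median log2 difference of the 10 was -0.05, against 0.00 over all genes.

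A list of 66 other genes of the pathway, from ligands to nuclear cofactors and targets, was set up by role, and 61 of them had enough reads to be tested. NOTCH4, DLK1, DTX1, KYAT1 and HES3 did not. KYAT1 encodes a metabolic enzyme, is not a gene of the pathway and was listed in error. In crTet minus crNT, 7 of the 61 were higher, beside 3.56% of all genes, and 1 was lower, beside 2.75% of all genes. The median log2 difference of the list was 0.05, against 0.01 over all genes. In sgTet minus sgNT none of the 61 was called by edgeR, beside 0.795% of all genes, with 7 at an unadjusted p under 0.05, beside 12.3% of all genes, and none called by DESeq2. Without crNT replicate 1 the count in crTet minus crNT was 2 higher and none lower, while 0.763% of all genes were called. Without sgTet replicate 1 it was 9 higher and 5 lower and without sgTet replicate 2 it was 10 higher and 5 lower, while 11.1% of all genes were called in both cases.

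Among direct targets outside the HES and HEY genes, NRARP, a Notch-induced feedback inhibitor, had 51.5 and 46.2 CPM in crTet against 31.2 and 32.3 CPM in crNT. It rose by 0.62 ± 0.11 on the log2 scale (adjusted p = 0.000716, edgeR), a call lost when the trend on length and GC content was removed (adjusted p = 0.0788). In sgTet it had 47.5 and 40.9 CPM against 34.8 and 41.4 CPM in sgNT, which overlap. MYC, a growth regulator that Notch switches on in leukaemia and many other signals do elsewhere, rose to 133 and 129 CPM in crTet, against 80.5 and 95.5 CPM in crNT (0.57 ± 0.08, adjusted p = 6.82e-05), and held its call in every alternative. MYC had 143 and 144 CPM in sgTet against 120 and 125 CPM in sgNT, and its difference there was not called (adjusted p = 0.24). SOX9, a transcription factor gene, rose to 25.1 and 23.4 CPM in crTet, against 13.3 and 17.3 CPM in crNT (0.66 ± 0.14, adjusted p = 0.0044), a call lost with reverse-strand counts (0.0511) and without crTet replicate 1 (0.0522) or crNT replicate 1 (0.265).

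The other HES and HEY genes gave no call. HES5, a classical Notch target, had 14 and 22 reads in crTet against 4 and 4 reads in crNT, and 37 and 12 reads in sgTet against 16 and 21 reads in sgNT. At these counts the crTet difference did not pass (adjusted p = 0.0917, edgeR). HEY2 had 10.0 and 14.5 CPM in crTet against 9.17 and 9.06 CPM in crNT (adjusted p = 0.184).

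In the nucleus, RBPJ itself had 111 and 106 CPM in crTet against 123 and 120 CPM in crNT, and 126 and 111 CPM in sgTet against 103 and 106 CPM in sgNT, with neither difference called (adjusted p of 0.263 and 0.37, edgeR). SPEN, a corepressor that binds RBPJ, rose to 248 and 184 CPM in crTet, against 129 and 134 CPM in crNT (log2 0.72 ± 0.12, adjusted p = 0.00368). The SPEN call was lost without sgTet replicate 1 (adjusted p = 0.0719), sgTet replicate 2 (0.0762) or crNT replicate 1 (0.051).

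ITCH, a ubiquitin ligase that acts on Notch receptors, was the 1 gene that fell in crTet, to 96.3 and 87.0 CPM against 116 and 118 CPM in crNT (log2 -0.36 ± 0.09, adjusted p = 0.0136, edgeR). Its call was lost with reverse-strand counts (0.0687) and without crTet replicate 2 (0.192), crNT replicate 1 (0.141) or crNT replicate 2 (0.132). The 3 further genes that rose, named after their values were seen, were the ligand gene JAG2 (log2 0.37, adjusted p = 0.0487), the acetyltransferase gene CREBBP (0.40, 0.00638) and the corepressor gene CTBP1 (0.34, 0.0117). Of 16 alternatives, 10 ended the call of JAG2, 5 that of CTBP1 and 2 that of CREBBP. Leaving out crNT replicate 1 ended all 3 (adjusted p of 0.32 for JAG2, 0.167 for CREBBP and 0.181 for CTBP1), and either strand column alone ended that of CTBP1 (0.201 forward, 0.17 reverse). No gene of ligand and receptor sugar transfer, ligand endocytosis or receptor cleavage was called in crTet minus crNT, among 5, 6 and 8 tested. By role the median log2 difference ran from -0.24 for receptor cleavage and -0.19 for receptor turnover to 0.25 for the nuclear complex and 0.29 for targets outside the HES and HEY genes, against 0.01 over all genes.

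**Figure D3:**
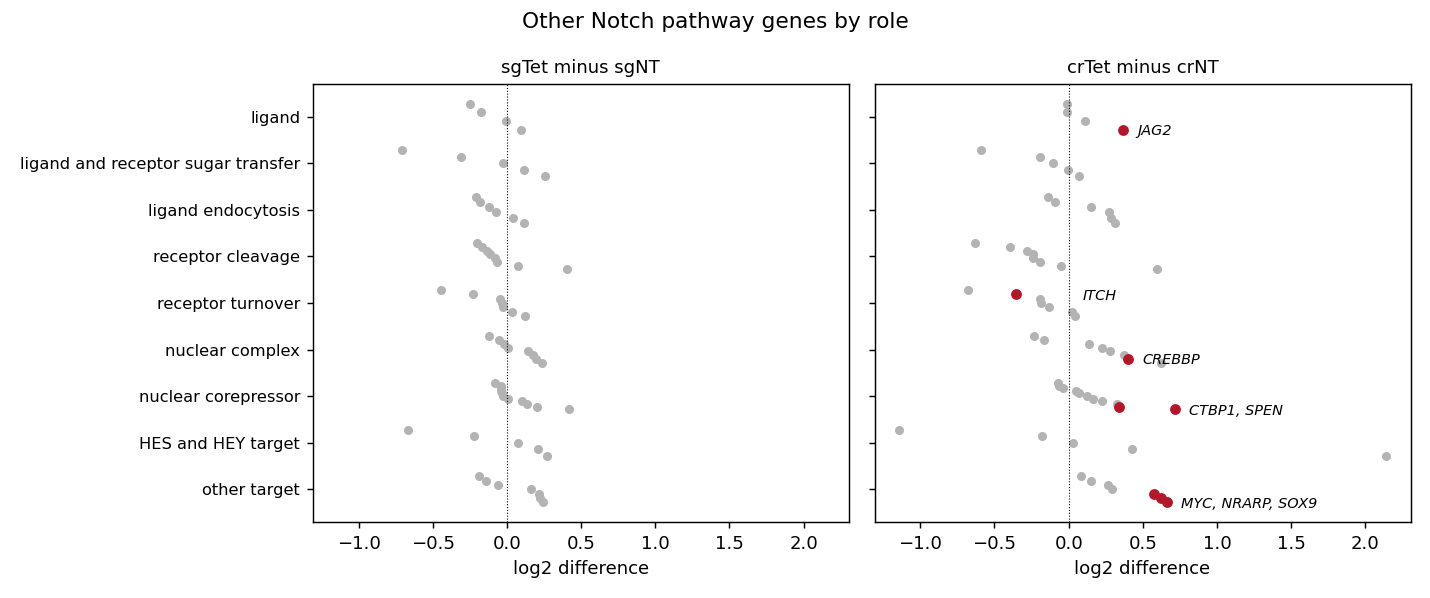
Log2 difference (horizontal axis) of 61 other Notch pathway genes, 1 point each, grouped by role (rows), for the Tet guide with dCasMINI-VPR on the left and with dCas12a-VPR on the right. Red points are genes called at an adjusted p of 0.05 and are named beside their row; there are 8 on the right, with ITCH to the left of 0, and none on the left.

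In the difference of guide effects 1 of the 61 was called, beside 1.35% of all genes. ITCH was higher, at 0.48 ± 0.13 on the log2 scale (adjusted p = 0.0498, edgeR), with 114 and 95.2 CPM in sgTet against 101 and 90.4 CPM in sgNT. The ITCH call was lost in 12 of 16 alternatives.

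Between constructs the list held genes on either side, given here as a description. The largest differences among genes without overlap were those of CCND1, a cyclin gene, with 3.97 to 4.82 CPM with dCasMINI-VPR and 6.06 to 7.32 CPM with dCas12a-VPR (log2 -0.62 ± 0.16), and of BHLHE40, a repressor gene, with 24.7 to 29.0 CPM with dCasMINI-VPR and 35.1 to 43.8 CPM with dCas12a-VPR (log2 -0.56 ± 0.08). The corepressor gene TLE2 (-0.34 ± 0.14) and the ligand endocytosis gene MIB1 (-0.20 ± 0.05) were also lower with dCasMINI-VPR, and MIB2, of the same role as MIB1 (0.31 ± 0.08) and the corepressor gene TLE1 (0.22 ± 0.06) were higher. HES5, at the few reads given above, had the largest difference of the list, 1.35 ± 0.49, with libraries of the 2 constructs that overlap.

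The genes whose profiles over the 8 libraries were nearest to that of HES1 included 1 of the pathway list, SPEN, and none of the other 9 members. Likeness was measured as the root mean square difference between log2 CPM profiles, each centred on its mean but not scaled. A gene that moves with HES1 by a smaller amount therefore ranks as less alike, and shared direction alone was not measured. The 10141 genes compared had a symbol and averaged at least 3 in log2 CPM. The 5 nearest were MKI67 at 0.231, SPEN at 0.267, CENPF at 0.271, AFG3L1P at 0.273 and ZIC2 at 0.285. MKI67 and CENPF are genes of proliferating cells, and ZIC2 encodes a zinc finger transcription factor. MKI67 had 68.4 and 59.6 CPM in sgTet, 48.1 and 68.4 CPM in sgNT, 64.2 and 53.3 CPM in crTet, and 21.5 and 28.7 CPM in crNT. ZIC2 had 140 and 135 CPM in sgTet, 129 and 155 CPM in sgNT, 116 and 118 CPM in crTet, and 63.7 and 82.7 CPM in crNT. All 5 were lowest in the crNT libraries, which had the largest unmapped share. HES1 is lowest there too, so the choice by likeness to HES1 favours this pattern, and nothing is read from it. The sgTet and sgNT libraries of each of the 5 overlapped, and those of HES1 did not. Over all 16606 genes tested, 3428 were higher and 3357 lower in sgTet without overlap. The HES1 difference there was not called, so nothing is read from this contrast. Among the other 9 members HEY1 came nearest to HES1, at rank 909, and NOTCH3 was the furthest, at rank 9655.

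**Figure D4:**
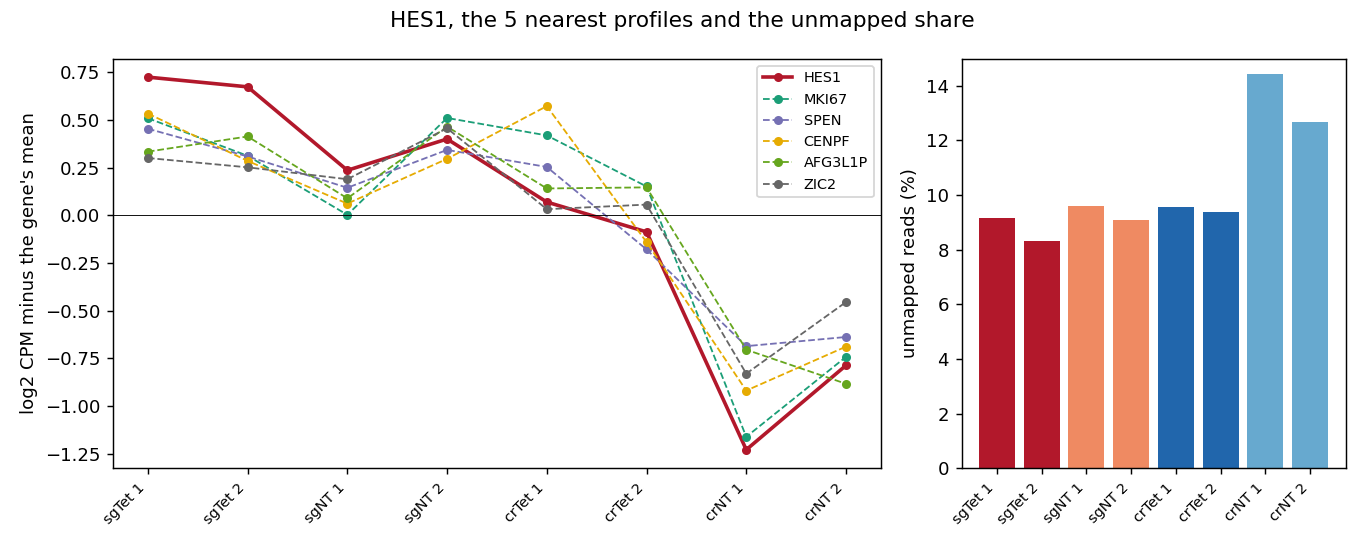
Left, log2 CPM of HES1 and its 5 nearest genes in each library, minus the mean of the gene (vertical axis), with lines joining the libraries of a gene only to guide the eye; right, unmapped reads as a percent of each library, bars from 0. All 6 genes are lowest in the 2 crNT libraries, where the unmapped share is 14.4% and 12.7%. The 5 were chosen for their likeness to HES1 over these libraries, which favours this pattern.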

How the data were processed

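Poly(A) RNA of 8 libraries was aligned to hg38 with STAR, per the submitters' processing notes, which name no version. The deposited counts are whole reads per gene, 1 file per library, with no normalization. Each file has 3 count columns, of which the one that ignores strand was used, and 4 totals that name no gene, which were left out; the unmapped reads among them were 8.32% to 14.4% of a library. Symbols came from a table of gene names, and positions from GENCODE release 29.

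The counts were fitted with edgeR 4.0.16 in R 4.3.3 (quasi-likelihood, robust, TMM factors, filterByExpr), in 1 model of all 8 libraries with 4 group means. It tested 16606 genes with 4 residual degrees of freedom. The spread of a gene was taken as 1 value for all 4 groups. It was drawn toward the spread of other genes, with a median prior of 28.9 degrees of freedom, so each p-value rests largely on that shared spread. Tests were two-sided, and a gene was called at a Benjamini-Hochberg adjusted p under 0.05 over all genes tested. CPM use TMM-adjusted library sizes. The model and contrasts were checked on simulated data. The alternatives were library size alone, DESeq2 1.42.0 size factors and test, no filter, either strand column, a replicate block, removal of a length and GC trend, and each library left out in turn. A lone library is then taken to vary as the other groups do.

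The members, gene lists and rules were chosen with earlier results of these data known. The pathway genes named were the called ones with the smallest adjusted p, at most 4 a direction and guide comparison, the 6 with the largest difference between constructs without overlap, and the 5 nearest HES1; exceptions are stated. Some genes of the lists are not reported here and are not counted in them.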

Additional observations from a re-analysis of the deposited data

Results flagged for a closer look

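In 2 of 91 genes tested from the lists, the guide effect with dCasMINI-VPR differed from that with dCas12a-VPR by the edgeR test of the difference itself, beside 1.35% of all genes. ITCH had a difference of 0.48 ± 0.13 on the log2 scale (SE, adjusted p = 0.0498).

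ATOH1, a proneural gene that HES proteins repress in mouse tissues, had a difference of -4.60 ± 1.16 (adjusted p = 0.0382) on few reads: 4 and 5 in sgTet against 13 and 12 in sgNT, and 14 and 36 in crTet against 4 and 2 in crNT. Its fitted value depends on these low counts, and 7 of 16 alternatives ended the call: reverse-strand counts (adjusted p = 0.174) and leaving out sgTet replicate 1 (0.0928), sgNT replicate 1 (0.0866), sgNT replicate 2 (0.204), crTet replicate 2 (0.256), crNT replicate 1 (0.159) or crNT replicate 2 (0.194). In 2 more, the DESeq2 test and forward-strand counts, it had no adjusted p. The ITCH call ended in 12 of 16.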

How the results depend on the processing

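Over 16 alternatives the HES1 rise in crTet against crNT kept its call, from 0.78 to 1.23 on the log2 scale. The count of the 10 genes called in crTet minus crNT was 1 in all but the analysis with the length and GC trend removed, which called 4: HES1 upward and HES4 (-0.40, reversed from 0.02), HES6 (-0.38) and NOTCH2 (-0.21) downward. In sgTet minus sgNT the count of 0 became 1, HES1, with no low count filter, and ranged from 0 to 4 when 1 library was left out. The 4 came without sgTet replicate 2, where 8.34% of all genes were called. In the difference of guide effects the count of 0 became 1, HES1, with the DESeq2 test, with no low count filter and with the replicate block. It ranged from 0 to 3 when 1 library was left out, with 3 without sgTet replicate 2 and 1 each without sgTet replicate 1 and without crNT replicate 2. Of the 61 other pathway genes, 1 was called in that difference, with 0 to 10 when 1 library was left out, 3 with no low count filter and 0 with the length and GC trend removed. Over all genes, sgTet minus sgNT held 132 calls, against 1475 without sgTet replicate 2 and 50 without sgNT replicate 2, and crTet minus crNT held 1049, against 135 without crNT replicate 1. The causes were not tested.

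The labels tie no replicate number to a batch or transfection, so the numbers were not taken to pair the libraries. The difference between replicates 1 and 2 correlated, over 10171 genes, at 0.0651 between sgTet and sgNT, at 0.113 between crTet and crNT, and over all 6 pairs of groups from -0.12 (sgNT and crTet) to 0.243 (sgTet and crTet). The replicate block raised all calls in crTet minus crNT to 1255 genes, against 1049 without it. Of the counts of the 10 genes it changed that in the difference of guide effects, given above, and no other.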

Other observations

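The ID genes encode helix-loop-helix inhibitors that bind HES partners and other basic helix-loop-helix proteins. In crTet minus crNT, 2 of the 4 ID genes rose, beside 3.56% of all genes, and none fell. In sgTet minus sgNT edgeR called none of the 4, beside 0.795% of all genes, and 1 had an unadjusted p under 0.05, beside 12.3% of all genes. ID1 rose to 42.7 and 45.2 CPM in crTet, against 24.2 and 28.3 CPM in crNT (log2 0.74 ± 0.11, adjusted p = 9.15e-05), and kept its call in all 16 alternatives. ID1 had 44.2 and 41.7 CPM in sgTet against 37.0 and 40.3 CPM in sgNT, and the difference between its guide effects was not called (-0.59, adjusted p = 0.0502). ID3 rose by 0.40 in crTet (adjusted p = 0.0213), a call lost with reverse-strand counts (0.0694) and without crTet replicate 2 (0.322), crNT replicate 1 (0.135) or crNT replicate 2 (0.22).

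Of 10 genes that HES proteins are known to repress in mouse tissues, 6 had enough reads to be tested. In crTet minus crNT 2 of the 6 rose, beside 3.56% of all genes, ATOH1 on few reads, with a call lost in 4 of 16 alternatives, and CDKN1B, a cell cycle inhibitor gene, with 30.4 and 33.7 CPM in crTet against 23.1 and 25.0 CPM in crNT (log2 0.41, adjusted p = 0.0351 by edgeR). The CDKN1B call was lost in 7 of 16 alternatives. In sgTet minus sgNT 1 of the 6 rose, beside 0.795% of all genes called in either direction, NEUROG3, an endocrine progenitor gene, with 117 and 149 reads in sgTet against 0 and 0 reads in sgNT (adjusted p = 1.18e-08). In the difference of guide effects none of the 6 was called higher and 1 lower, ATOH1, beside 1.35% of all genes in either direction. The NEUROG3 difference of guide effects was 7.70 on the log2 scale, the 1 positive value of the 6, with 0 reads in both sgNT libraries. Between the Tet groups edgeR called NEUROG3 higher in sgTet than in crTet, also at 7.70, beside 279 of 16606 genes. It called 1 other of the 6 lower there, beside 432 of 16606. The test of the difference did not show the NEUROG3 rise to be particular to dCasMINI-VPR, and a part of HES proteins in it was not tested.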
